A study of Homo sapiens with 6 samples.

Results

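The 34 genes described here act in homologous recombination and in the Fanconi anemia pathway, and they were taken as a list of names, with no measured value in the rule. All 34 were found among the 26967 named genes of the table, and all 34 were among the 15173 genes that were tested, those with a mean of 10 normalized counts or more. They were measured by RNA-seq in UWB1.289, an established human ovarian carcinoma cell line that is known for lacking functional BRCA1. Every culture was transduced in polybrene (10 µg/mL) and, 96 h later, put under puromycin rising from 1 to 3 µg/mL. The groups differed in the hairpin: a control (shCTRL, 3 libraries) or one against HBO1 (shHBO1, 3 libraries), the histone acetyltransferase encoded by KAT7. The question was how loss of HBO1 message changes expression in these cells, and both groups share the BRCA1 defect of the line. The sources used here give neither the number of hairpins nor the origin of the replicates. The p-values therefore rest on the spread between libraries, and that spread may be technical.

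Homologous recombination repairs a double-strand break by copying the sister chromatid. The break ends are cut back to single strands, a protein filament is built on them with the help of BRCA2, and the coated strand invades the intact copy. The Fanconi pathway recognises crosslinks that join both DNA strands: a core ubiquitin ligase marks FANCD2 and FANCI, nucleases then cut the crosslink out, and the break left behind is mended by recombination. Cells without BRCA1 are known to be impaired in homologous recombination, and tumours of this kind are treated with crosslinking drugs and PARP inhibitors.

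No recombination or Fanconi gene passed the test between shHBO1 and shCTRL. Limma called 0 of the 34 genes at an adjusted p below 0.05, where it called 1 of 15173 genes overall (0.00659%), and that gene was KAT7. In shCTRL, KAT7 had 3616, 3952 and 3554 normalized counts, against 1008, 872 and 784 in shHBO1, which is a log2 difference of −2.07. At an unadjusted limma p below 0.05 there was 1 member, BRCA2, against 3.55% of all genes tested. edgeR, which called 0.00659% of genes, and DESeq2, which called 0.145% of those with an adjusted p, also called 0 members. The values of both groups were fully apart for 2 of the 34 genes (5.88%), BRCA2 higher and BLM lower in shHBO1, against 8.93% of all genes tested.

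The log2 fold changes, shHBO1 minus shCTRL on the log2(normalized count + 1) scale, ran from −0.23 for CHEK2 to 0.33 for BRCA2. Their median was 0.014, with 18 genes above 0 and 16 below, and the median over all genes tested was 0.00013. The median size of the difference, without its sign, was 0.053 for the members, 0.073 for the 9293 tested genes whose means lie in the members' range (292 to 6832 normalized counts) and 0.093 for all genes tested. The lowest value behind any member was 227 reads in a library. The median within-group SD on the log2 scale was 0.11 for the members, 0.13 for the genes in their range and 0.17 for all genes tested. The members thus also varied less between libraries of a group, and the part of this in their smaller differences was not tested. The 95% confidence intervals, taken gene by gene, rest on the spread between libraries, which may be technical. For 33 of the 34 genes the interval lay inside a 1.5-fold change in either direction, a log2 difference of 0.58, and BRCA2 was the exception. The same held for 87.8% of the genes in the members' range and 66.1% of all genes tested.

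**Figure D1:**
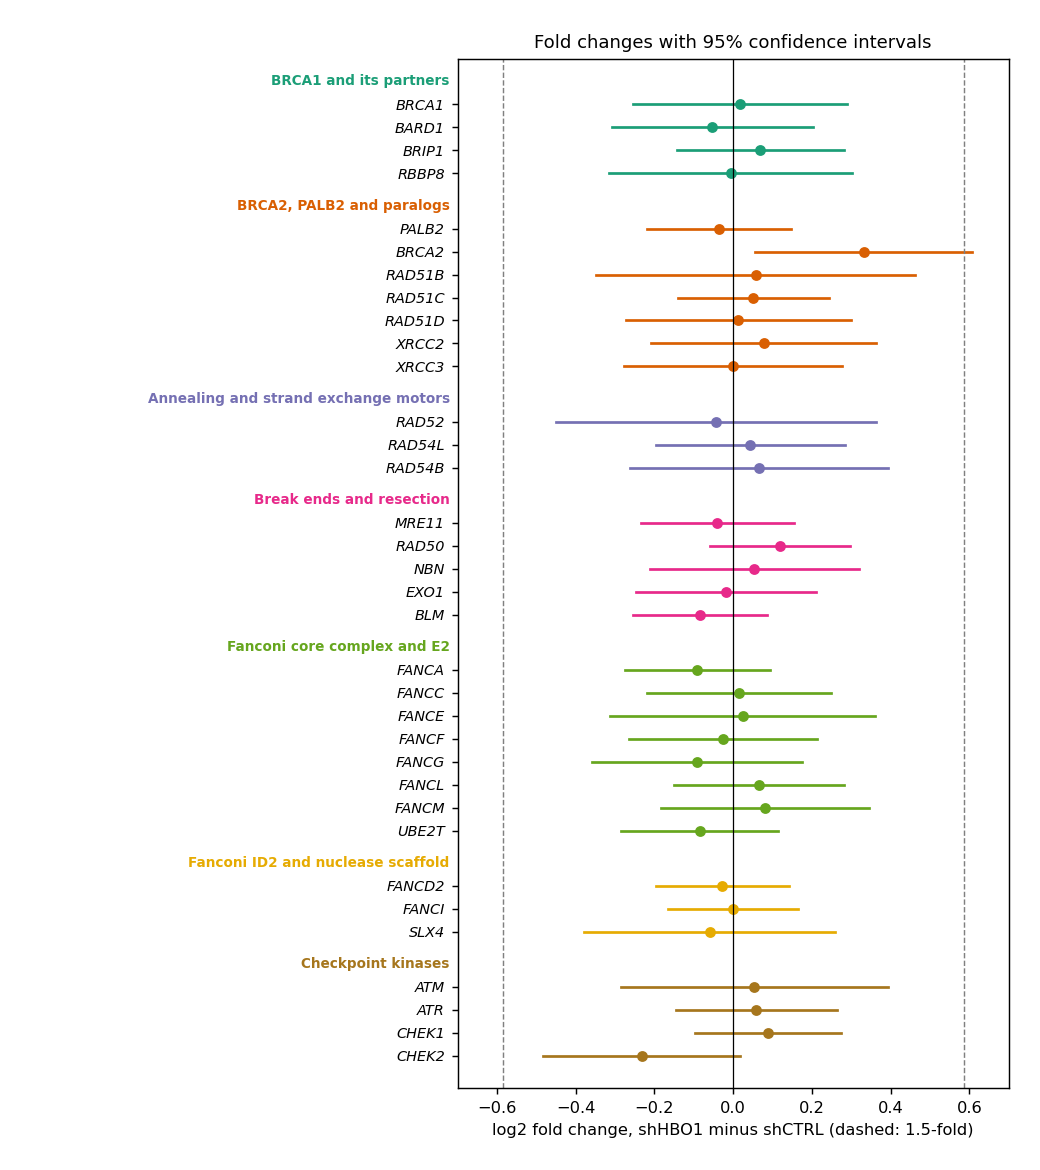
Log2 fold change of each of the 34 genes between shHBO1 and shCTRL (points) with its 95% confidence interval from limma (lines), grouped by role. The dashed lines mark a 1.5-fold change. The interval of BRCA2 alone leaves 0 to one side and alone crosses a dashed line.

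**Figure D2:**
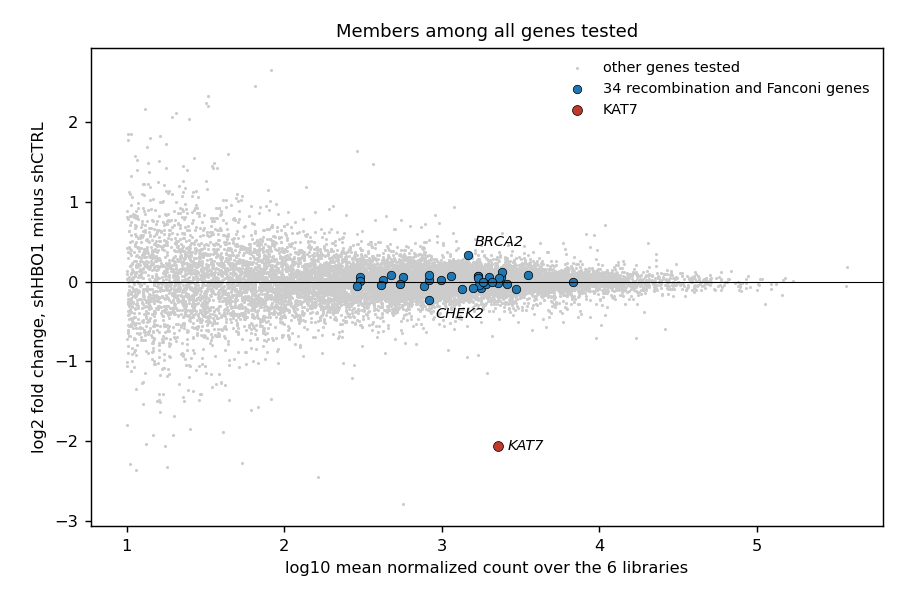
Log2 fold change against the log10 mean normalized count for the 15173 genes tested, with 1 point per gene. The 34 recombination and Fanconi genes (blue) lie along 0 within the grey cloud, and KAT7 (red) lies at −2.07.

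BRCA2, the mediator that builds the repair filament on single-stranded DNA, had the largest difference of the 34. In shCTRL it had 1375, 1109.8 and 1444 normalized counts, and in shHBO1 it had 1741, 1509 and 1670.4. All 3 shHBO1 values lay above all 3 shCTRL values, and the gap was narrow: 1444 against 1509. The means were 1309.7 ± 177 and 1640.1 ± 119 (SD, n = 3 each), a log2 fold change of 0.33 with a standard error of 0.12. Its confidence interval ran from 0.056 to 0.61, with an unadjusted limma p of 0.024 and an adjusted p of 1.00. An exact two-sided permutation test gave p = 0.1, the smallest that 3 libraries against 3 can give. Within pairs of libraries with the same replicate number the differences were 0.34, 0.44 and 0.21. With the replicate number as a block, limma gave an unadjusted p of 0.0017 and an adjusted p of 0.169, so BRCA2 stayed outside the threshold. Blocked limma called 0.125% of all genes, and 11.3% of all genes had an unadjusted p below 0.05 in it. Leaving out 1 library at a time moved the log2 fold change of BRCA2 between 0.22, without shCTRL replicate 2, and 0.41, without shCTRL replicate 3. The table holds a single BRCA2 transcript, NM_000059, so its sum does not depend on how reads were divided between transcripts.

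CHEK2, the checkpoint kinase that ATM activates at double-strand breaks, had the largest difference in the other direction. It had 939, 942 and 820.1 normalized counts in shCTRL and 759, 836 and 705 in shHBO1. The groups overlapped, because shHBO1 replicate 2 lay above shCTRL replicate 3. The means were 901 ± 69.7 and 767 ± 65.7 (SD, n = 3 each), a log2 fold change of −0.23 with a confidence interval from −0.48 to 0.018. The unadjusted limma p was 0.064, and the exact two-sided permutation test gave p = 0.2. All 3 numbered pairs were lower in shHBO1, by −0.31, −0.17 and −0.22, and the blocked limma fit gave an adjusted p of 0.316. At 0.05 unadjusted, the blocked limma fit thus held 2 of the 34 members, BRCA2 and CHEK2, against 11.3% of all genes tested. CHEK2 has near-identical pseudogene copies in the genome. The sources used here do not say how reads were divided among such copies, which leaves its level uncertain.

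**Figure D3:**
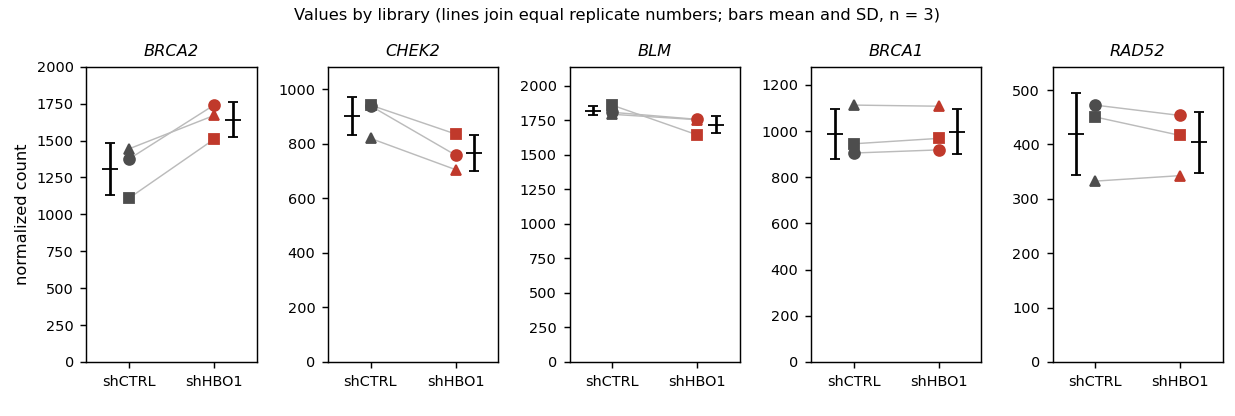
Normalized counts in each library (points; circles, squares and triangles are replicates 1, 2 and 3) for BRCA2, CHEK2, BLM, BRCA1 and RAD52, with the mean and SD of each group (black bars, n = 3). The groups are apart for BRCA2 and BLM, while for BRCA1 and RAD52 the replicate 3 libraries of both groups lie away from the others.

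Because BRCA2 and CHEK2 stood at the ends of the range, the 250 bases before their start sites are shown, from the RefSeq promoter table of GRCh38.p14. The window of BRCA2 is chr13:32315258-32315507 on the plus strand, and its capitals mark the ETS motif CCGGAAGT, which reads ACTTCCGG on the printed strand. The window of CHEK2 is chr22:28741821-28742070 on the minus strand, and its capitals mark 3 copies of the CCAAT box, which reads ATTGG on the printed strand.
BRCA2: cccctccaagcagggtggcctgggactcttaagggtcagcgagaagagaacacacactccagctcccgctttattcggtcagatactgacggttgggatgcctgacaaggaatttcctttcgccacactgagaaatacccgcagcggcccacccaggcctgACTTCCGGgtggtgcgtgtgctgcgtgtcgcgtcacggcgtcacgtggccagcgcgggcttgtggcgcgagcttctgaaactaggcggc
CHEK2: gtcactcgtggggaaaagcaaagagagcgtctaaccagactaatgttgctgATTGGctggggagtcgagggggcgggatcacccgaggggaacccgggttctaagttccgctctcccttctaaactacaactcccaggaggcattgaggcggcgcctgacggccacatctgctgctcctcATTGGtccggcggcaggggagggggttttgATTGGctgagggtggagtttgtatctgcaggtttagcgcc

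Windows were at hand for 31 of the 34 members, all but RAD54B, NBN and FANCI, and 5 motifs were searched in them on both strands. A gene was counted where any of its windows held a match. The CCAAT box (CCAAT) occurred in 14 of the 31 members (45.2%), against 41.0% of the 12010 tested genes with a window. The ETS motif (CCGGAAGT) occurred in 5 members, BRCA2, FANCD2, MRE11, PALB2 and RAD50 (16.1%, against 7.72%). A DNA sequence bound by E2F factors, searched as TTTGGCGC, TTTCCCGC, TTTGCCGC and TTTCGCGC, occurred in 2 members, FANCA and FANCC (6.45%, against 5.52%). The cell-cycle homology region TTTGAA occurred in 4 members (12.9%, against 11.8%). The NRF1 motif GCATGCGC occurred in 3 members, RBBP8, SLX4 and XRCC2 (9.68%, against 5.43%). These matches describe the letters in the windows and no factor was measured on them. The E2F, CCAAT and TTTGAA motifs were thus about as common in the members as in the tested genes at large. The members with an ETS match had log2 fold changes from −0.040 for MRE11 and −0.035 for PALB2 to 0.12 for RAD50 and 0.33 for BRCA2, so they lay on both sides of 0.

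None of the 4 genes for BRCA1 and its direct partners passed the test, and their estimates lay near 0. BRCA1, which with BARD1 forms a ubiquitin ligase that steers breaks into recombination, had 905, 945 and 1113 normalized counts in shCTRL and 919, 968 and 1108 in shHBO1. The values of both groups covered the same range, with the replicate 3 library highest in each. The means were 988 ± 110.2 and 998 ± 98.1 (SD, n = 3 each), a log2 fold change of 0.017 with a confidence interval from −0.26 to 0.29. BARD1 had 766, 823 and 759 in shCTRL and 756, 840.1 and 675 in shHBO1, a difference of −0.053. RBBP8, which encodes CtIP and starts the cutting back of break ends together with the MRE11 complex, had 1547, 1796 and 2226 in shCTRL and 1799, 1743 and 1945 in shHBO1. The control values of RBBP8 spread over a wider range than, and on both sides of, the shHBO1 values, and its log2 fold change was −0.0067. BRIP1, a helicase that binds BRCA1, differed by 0.069. The median over the 4 genes was 0.005.

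The BRCA1 transcript with the most counts was one that lacks most of the gene's longest exon. Of 6 BRCA1 transcripts in the table it was NM_007298, with 446, 410.2 and 393 in shCTRL and 422, 415 and 440.0 in shHBO1. That was 42.4% of the BRCA1 counts over the 6 libraries, and the values of both groups overlapped (log2 fold change 0.034, confidence interval −0.31 to 0.38). In GENCODE release 29, NM_007298 and NM_007299 join an exon of 117 bases where the other 4 transcripts have an exon of 3426 bases, so 3309 bases of the long exon are skipped. The junction, read from the GENCODE transcripts, is shown because it separates them, with 30 bases before the shared splice position in lower case and the 30 bases that follow it in each transcript in capitals.
NM_007298: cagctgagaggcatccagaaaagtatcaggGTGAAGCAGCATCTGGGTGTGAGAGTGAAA
NM_007294: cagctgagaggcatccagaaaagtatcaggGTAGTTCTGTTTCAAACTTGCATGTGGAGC

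NM_007298 and NM_007299 together held 51.9, 48.5 and 37.2% of the BRCA1 counts in shCTRL and 46.0, 47.3 and 40.8% in shHBO1. The replicate 3 library had the lowest share in both groups. The means were 45.8% ± 7.65 and 44.7% ± 3.46 (SD, n = 3 each), and an exact two-sided permutation test of the shares gave p = 0.8. NM_007294, which carries the long exon and encodes the reference protein, varied more between replicates than between groups, with 135, 200.4 and 305 in shCTRL and 164, 101 and 290.5 in shHBO1. NM_007297, also with the long exon, had 79.6 to 160.5 in shCTRL and 114 to 231 in shHBO1. NR_027676, typed in GENCODE as a target of nonsense-mediated decay, had 132, 177 and 187 in shCTRL and 199.96, 225 and 124 in shHBO1. The low transcripts NM_007299 and NM_007300 had 0 to 47.8 and 10.6 to 46.1. None of the 6 passed the test in limma. The sources used here do not say how reads were divided between transcripts that share exons, so the shares depend on a step that could not be checked.

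**Figure D4:**
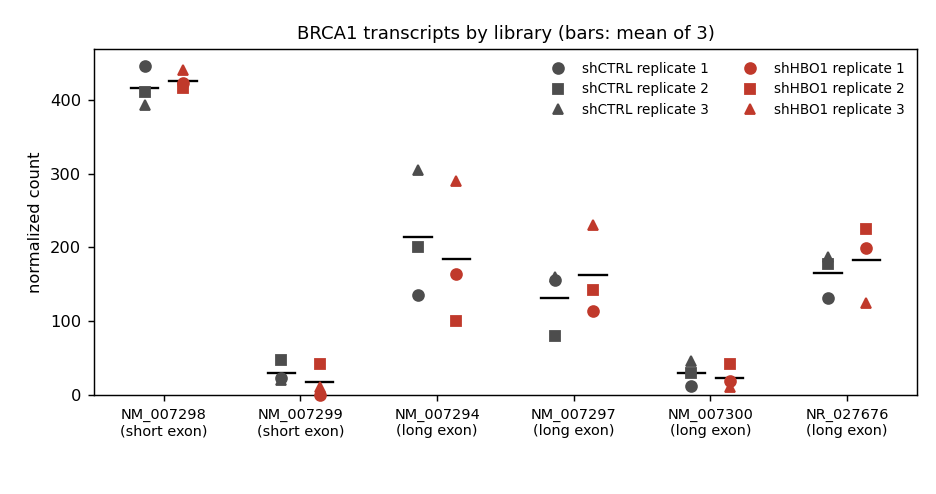
Normalized counts of the 6 BRCA1 transcripts in each library (points; circles, squares and triangles are replicates 1, 2 and 3), with the mean of each group (black bars, n = 3). NM_007298, with the short exon, lies between 393 and 446 in every library, above every other transcript, and the groups overlap for each transcript.

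Over all members the table held 106 transcripts, of which 88 had a mean of at least 10 and were tested. Limma called 0 of the 88, with and without the replicate block, where it called 0.00297% of all transcripts without the block and 0% with it. Without the block, 4 of the 88 had an unadjusted p below 0.05 (4.55%, against 3.76% of all transcripts). Groups were apart for 7 of the 88 (7.95%, against 9.09%), 2 higher and 5 lower in shHBO1. A single transcript stood for 11 members, and in 14 members the most abundant one held over 90% of the counts. The lowest such share was 41.3%, for NM_005432 of XRCC3.

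Of those 7, BRCA2 gave 1 (NM_000059, higher) and CHEK1, CHEK2, FANCD2 and RAD51D gave 1 each, all lower in shHBO1. The transcript of CHEK1, NM_001330428, was a minor one, with 79.2, 26.2 and 38.8 in shCTRL and 18.7, 1.02 and 0 in shHBO1. That of FANCD2, NM_001319984, held 36.3% of the gene's counts, with 777, 769 and 701 in shCTRL and 693, 647 and 600.2 in shHBO1. That of RAD51D, NM_002878, held 46.5%, with 165, 137 and 171 in shCTRL and 134, 123.2 and 122.6 in shHBO1. BARD1 gave the remaining 2, which were singled out after their values were seen. Its most abundant transcript, NM_000465, had 335, 561 and 370.2 in shCTRL and 566, 603 and 579 in shHBO1, and every shHBO1 value lay above the controls, 1 of them narrowly. Its log2 fold change was 0.50, with a confidence interval from −0.023 to 1.02 and an adjusted p of 1.00 in limma. The non-coding NR_104212 went the other way, with 89.4, 153 and 157 in shCTRL and 0, 30.5 and 31.8 in shHBO1, all below the controls. NR_104215, also non-coding, had 79.2, 37.5 and 112 in shCTRL and 0.934, 40.7 and 11.6 in shHBO1. The sums over BARD1 transcripts overlapped between the groups, as given above. BLM showed the reverse case: the sum over its transcripts kept the groups apart, while NM_000057, which held 72.8% of its counts, differed by −0.0074 on the log2 scale.

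PALB2, the bridge between BRCA1 and BRCA2, had 2459, 2610.1 and 2851 normalized counts in shCTRL and 2573, 2531 and 2610.3 in shHBO1. Its shHBO1 values fell within the range of the controls, and its log2 fold change was −0.035 with a confidence interval from −0.22 to 0.15. For BRCA2, its binding partner, the estimate was 0.33, and the difference between these genes was not tested. The paralogs RAD51B, RAD51C, RAD51D, XRCC2 and XRCC3, which stabilise the repair filament, had estimates up to 0.077 for XRCC2. XRCC3 had 1889 to 2479 in shCTRL and 1999 to 2218 in shHBO1, and its confidence interval ran from −0.28 to 0.28. The others were RAD51D at 0.013, RAD51C at 0.051 and RAD51B at 0.057. RAD51B had among the widest intervals of the 34, −0.35 to 0.46, with 334, 325 and 238 in shCTRL and 352, 299 and 276 in shHBO1. The replicate 3 library was the lowest of its group in both. The median over PALB2, BRCA2 and the 5 paralogs was 0.051.

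The annealing factor RAD52 and the DNA translocases RAD54L and RAD54B, which help the filament invade its partner, differed by −0.043, 0.044 and 0.066. RAD52 had 472, 450.5 and 332 in shCTRL and 453, 416 and 343 in shHBO1. RAD54B had 1354, 1084 and 955 in shCTRL and 1190.4, 1273 and 1061 in shHBO1. The groups overlapped in both genes, and the replicate 3 library was the lowest of each group. RAD54L had 2201 to 2304 in shCTRL and 2011 to 2578 in shHBO1.

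Among the genes that sense and process break ends, BLM was the one whose groups did not overlap. BLM, a helicase that unwinds ends for resection and dissolves joint molecules, had 1808, 1859.9 and 1793 in shCTRL and 1757, 1645 and 1754 in shHBO1. The lowest control lay only slightly above the highest shHBO1 value, and the log2 fold change was −0.084 with a confidence interval from −0.25 to 0.086. RAD50, the long coiled-coil ATPase of the MRE11 complex, had 2322, 2185 and 2477 in shCTRL and 2587, 2458 and 2528 in shHBO1. The groups of RAD50 overlapped through shCTRL replicate 3, and its log2 fold change was 0.12 (confidence interval −0.059 to 0.30). Its partners, the nuclease MRE11 and the adaptor NBN, differed by −0.040 and 0.054, and the resection exonuclease EXO1 by −0.019. The median over these 5 genes was −0.019.

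Of the 8 genes for the Fanconi core complex and its ubiquitin donor, none passed the test, and the estimates lay between −0.092 and 0.080. The core subunits FANCA, FANCC, FANCE, FANCF and FANCG differed by −0.091, 0.015, 0.024, −0.027 and −0.092. FANCL, the subunit with ubiquitin ligase activity, differed by 0.065. FANCM, the translocase that anchors the complex on DNA, differed by 0.080. UBE2T, the ubiquitin donor that works with FANCL, differed by −0.085. It had 1608, 1630.5 and 1669.5 in shCTRL and 1496, 1687 and 1451 in shHBO1. FANCA had 2973, 2988 and 3283 in shCTRL and 2956, 2703 and 3022 in shHBO1. The groups overlapped for all 8 genes, 4 of which lay above 0 and 4 below, with a median of −0.006.

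Neither substrate of that complex passed the test. FANCI had 6634, 6512 and 7370.3 in shCTRL and 6865, 6776 and 6837 in shHBO1. The shHBO1 values lay inside the range of the controls, and the log2 fold change was −0.00056 with a confidence interval from −0.17 to 0.16, the narrowest of the members. FANCD2, its partner in the clamp that is ubiquitinated, had 2010.0, 1919 and 1891 in shCTRL and 1964, 1914 and 1833 in shHBO1, a difference of −0.027. FANCD2, like CHEK2, has pseudogene copies that could share reads. SLX4, the scaffold that brings nucleases to the crosslink, had 301, 268 and 327 in shCTRL and 291, 261 and 307 in shHBO1, a difference of −0.060.

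The other kinases of the checkpoint lay slightly above 0, and none passed the test. ATM, which responds to double-strand breaks, had 609, 489.8 and 560.0 in shCTRL and 657, 484 and 588 in shHBO1, and replicate 2 was the lowest in both groups. Its log2 fold change was 0.053, with a confidence interval from −0.29 to 0.39. ATR, which responds to single-stranded DNA, differed by 0.059. CHEK1, the kinase below ATR, had 3381, 3201 and 3692 in shCTRL and 3446, 3765 and 3701 in shHBO1. The groups of CHEK1 overlapped and its log2 fold change was 0.088, with a confidence interval from −0.098 to 0.27.

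**Figure D5:**
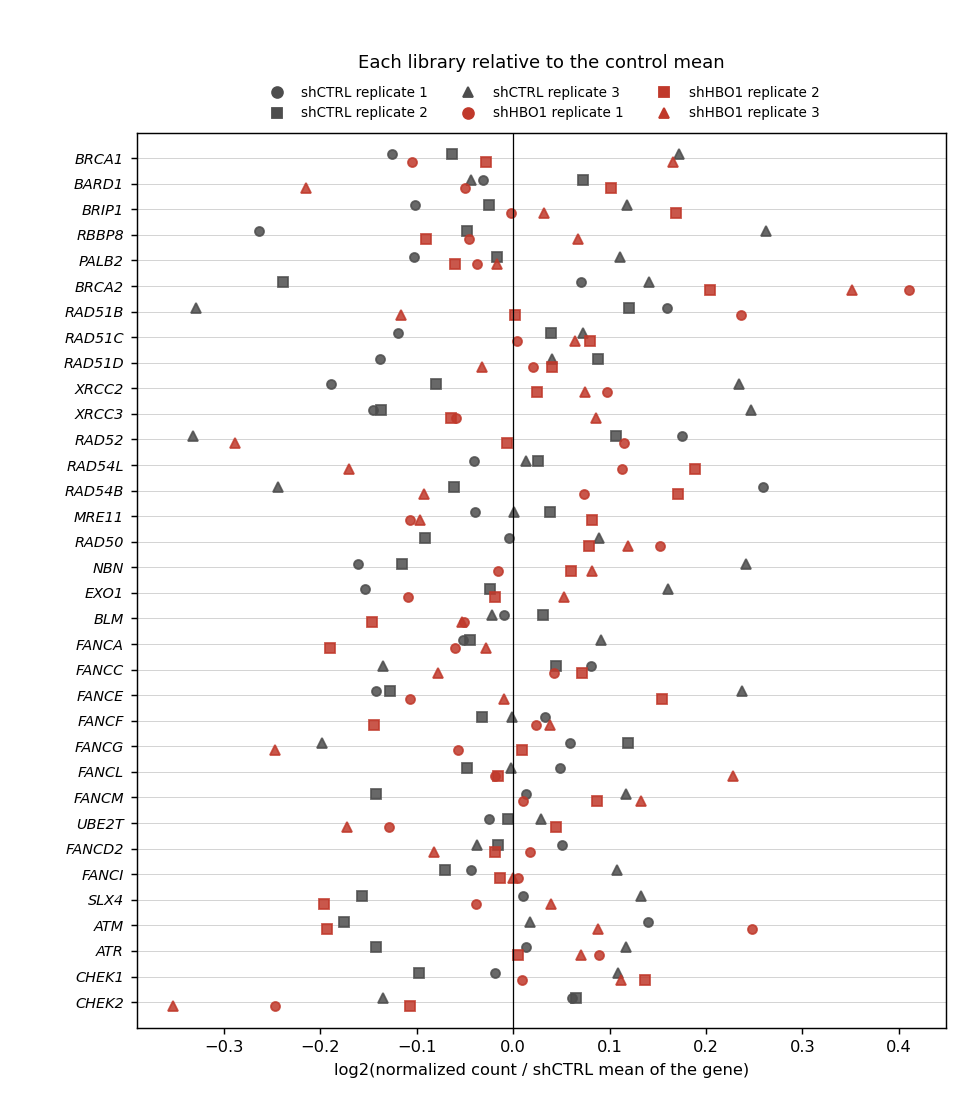
Each library's normalized count relative to the shCTRL mean of the gene, on a log2 scale, for the 34 genes (grey, shCTRL; red, shHBO1; circles, squares and triangles are replicates 1, 2 and 3). Grey and red points intermingle for 32 genes, and triangles of both colours lie together on one side for genes such as BRCA1 and RAD52.

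For some members the estimated difference between replicate numbers was larger than that between the hairpins, though none passed the test. Libraries with the same number deviated together across all genes, with correlations of 0.32, 0.19 and 0.48, although no label ties a number to a day or batch. Replicate 2 of shCTRL correlated about as much with replicate 1 of shHBO1 (0.21) as with replicate 2 of shHBO1 (0.19). RAD52 was lower in the replicate 3 libraries than in the replicate 1 libraries by −0.45 log2 units and RAD51B by −0.42, larger than any difference of a member between the hairpins. BRCA1 was higher in the replicate 3 libraries by 0.28 and RBBP8 by 0.32. A limma F-test over the replicate numbers called 0 of the 34 genes, against 9.68% of all genes tested and 12.04% of those in the members' range. The smallest adjusted p values in that limma test were 0.0761 for RAD52 and 0.0923 for FANCG. All 3 numbered pairs of shHBO1 minus shCTRL had the same sign for 9 of the 34 genes (26.5%), against 32.4% of all genes tested. The median over the members was 0.031, 0.034 and −0.061 in pairs 1, 2 and 3.

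None of the other genes of these pathways that were listed passed the test either. The list, of 68 genes, from filament mediators to the Fanconi accessory factors, the single-strand binding protein RPA, the resolvases and the BRCA1-A complex, was tested whole. Limma, edgeR and DESeq2 called 0 of the 68 in either direction, with or without the replicate block. At an unadjusted limma p below 0.05 there were 0 without the block and 4 with it. Of all genes tested, 3.55% and 11.3% had such a p. The blocked edgeR and DESeq2 fits called 0.125% and 1.03% of all genes. The median log2 fold change was 0.011, with 35 genes above 0 and 33 below, and 60 of the 68 confidence intervals lay inside a 1.5-fold change. So did 66.1% of the intervals of all genes tested and 87.8% of those in the members' range. Of the genes above 0, the smallest unadjusted p belonged to FAN1, a nuclease that acts at crosslinks, with 864, 875 and 931 in shCTRL and 988, 985 and 1016 in shHBO1. Its groups did not overlap, and its log2 fold change was 0.16 with a confidence interval from −0.031 to 0.36. CENPX, a histone-fold partner of FANCM, and the nuclease subunit ERCC4 followed with 0.17 and 0.20. Of the genes below 0, the smallest p values belonged to FAAP20 at −0.18, H2AX at −0.091 and ZSWIM7 at −0.21. Groups were apart for 2 of the 68, FAN1 and SWSAP1, both higher in shHBO1 (2.94%, against 8.93% of all genes tested).

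Many recombination genes are transcribed with the cell cycle, so lists of cycle genes were measured beside them. The median log2 fold change was −0.035 over 23 genes of the G1/S transition and 0.008 over 21 genes of G2 and mitosis. The median of the recombination and Fanconi genes was 0.014, and differences between these medians were not tested. From replicate 1 to replicate 3, regardless of hairpin, the median difference was 0.15 for the G1/S genes, −0.14 for the G2/M genes and 0.052 for the members. A part of the cell cycle in these member values was not tested.

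Across the series, the libraries held 35940400 to 39908703 reads. Epithelial and ovarian marker genes were abundant, among them PAX8 (8001 to 11302 normalized counts) and KRT7, while WT1, a further marker of serous ovarian tumours, was at 0 to 26.2. Of the markers of other cell types, 5 of 7 for leukocytes, 2 of 6 for fibroblasts and all 6 for endothelium averaged 10 normalized counts or more. The highest of each list were CD68 (456 to 633), COL1A1 (502 to 895) and CDH5 (674 to 1232), whereas CD3E was at 0 to 1.87 and DCN at 0 in all 6 libraries. Limma, edgeR and DESeq2 without the block called 0 of these leukocyte, fibroblast and endothelial markers between the groups. DESeq2 with the replicate block called 1, an endothelial one. At an unadjusted limma p below 0.05 there were 2 of them, against 3.55% of all genes tested. Of the 12 epithelial and ovarian markers, 10 lay below 0, with a median log2 fold change of −0.12. DESeq2 called 1 of these 12 without the block and 2 with it. It called 0.145% and 1.03% of all genes with an adjusted p. The part of any of these markers in the member values was not tested.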

How the data were processed

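RNA-seq was analysed in 6 UWB1.289 libraries, 3 per hairpin group. The authors deposited 1 table of normalized signal per RefSeq transcript (58215 rows). The submitters' processing notes name Bowtie 1.2.1.1, SAMtools, DESeq2 and hg19, with no roles; per the labels' protocols, total RNA came from an RNeasy kit and libraries from a standard Illumina protocol. The sources used here do not give poly(A) selection, strandedness or read assignment. Each library's deposited values stepped by 1 fixed amount, and dividing by it gave whole reads for 100% of values (tolerance 0.01 read). Columns were matched to samples by name.

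Accessions were named from RefSeq (57191) and GENCODE release 29 (646). The 378 unnamed ones, with 0.0920 to 0.0977% of reads, were left out. Transcripts were summed per gene, and log2(normalized count + 1) was tested with limma-trend (limma 3.58.1, R 4.3.3) for genes averaging 10 or more, with Benjamini-Hochberg adjustment over all genes and a threshold of 0.05. Alternatives were edgeR 4.0.16 and DESeq2 1.42.0 on the recovered reads, the replicate number as a block, other scalings, pseudocounts and filters, the most abundant transcript, and leaving out libraries or pairs. The methods were tested on simulated data. Libraries with the same number deviated together (correlations 0.32, 0.19 and 0.48, all above the limit of 0.1). The numbers were therefore treated as pairs in the blocked fits and in the differences within pairs. The main limma fit, with its intervals and calls, left the replicate number out. The unmatched shCTRL replicate 2 and shHBO1 replicate 1 also exceeded that limit (0.21), so the limit does not separate numbers 1 and 2.

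The members and lists were chosen with earlier results of these data known. Named were KAT7, all 34 members with BRCA1 transcripts and the other members' most abundant transcripts, and the 3 other pathway genes with the smallest p on each side of 0. SWSAP1, the marker genes and minor transcripts of BARD1, CHEK1 and FANCD2 were named outside that rule. Of the other pathway genes, 1 is counted but not reported here. Promoter windows came from RefSeq, GRCh38.p14; the deposited values are on hg19 and were not joined to coordinates.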

Additional observations from a re-analysis of the deposited data

How the results depend on the processing

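Over 21 alternative settings, 0 of the 34 recombination and Fanconi genes and 0 of the 68 other pathway genes were called in any. The number of all genes called was 1 without a block, 19 with the replicate block in limma, 19 with DESeq2, and, in fits added after the data were seen, 19 with edgeR and the replicate block and 147 with DESeq2 and the replicate block. Without the pair numbered 2 it was 0, with the KAT7 log2 fold change at −2.01 (limma adjusted p = 0.402). The cause was not tested beyond the smaller number of libraries. The median of the members was 0.014 with the replicate block in limma as without it. In this balanced design the block cannot change a limma log2 fold change or its sign. The median lay between −0.025 and 0.053 over all settings. It was below 0 without shCTRL replicate 1, shCTRL replicate 2, pair 1 or pair 2. Single member values were not stable in sign: of 714 values, 68 had the opposite sign, in 24 of the 34 genes, and 10 genes kept their sign, among them BRCA2, CHEK2 and BLM. The values ran from −0.31 (most abundant transcript of RAD51D) to 0.50 (that of BARD1). With 3 libraries per group of unknown origin, changes smaller than the confidence intervals were not detectable. Larger changes could also go uncalled, because the p-values were adjusted over 15173 genes. BRCA2, whose interval left out 0 in limma without the block, was not called. Counting error from as few as 227 reads is part of the spread behind the intervals.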
